A study of Homo sapiens with 2 samples.

Results

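Caveolae, the flask-shaped pits of the plasma membrane, are built from caveolins, cavins and a few accessory proteins, and 7 of their genes were followed in A549 cells, a human lung carcinoma line: CAV1, CAV2, CAVIN1, CAVIN2, CAVIN3, EHD2 and PACSIN2. The genes were taken by name, including the older names PTRF (CAVIN1), SDPR (CAVIN2) and PRKCDBP (CAVIN3), and all 7 were measured, among 12375 genes in all. They were represented by 17 of the 54613 probe sets that are not array controls. A549 cells were cultured without TGF-β (control) or were given TGF-β at 1 ng/ml, and after 12 h total RNA of each condition was hybridized to 1 Affymetrix array. No further agent or genetic change was named for either condition, the cytokine named in the study's materials was TGF-β1, and a single carcinoma line is the only model. With 1 array per condition no difference has a replicate check and no p-value is given, so precision is limited by how few arrays there are.

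Caveolin 1 inserts into the inner leaflet of the membrane as a hairpin and assembles into oligomers, together with caveolin 2. The cavins form a coat on the cytosolic side, EHD2 is an ATPase that holds the neck of the pit, and PACSIN2 bends the membrane through its F-BAR domain. Caveolae are abundant in endothelium, adipocytes, muscle and alveolar type I cells, where they buffer membrane tension and hold receptors, and endocytosis through caveolin-positive membranes is one route by which TGF-β receptors leave the cell surface.

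The sequences upstream of CAVIN2, the gene of this group that fell, and of CAV1 and CAV2, which lie next to each other and kept their signals, are shown so that they can be compared. Each is the 250 bases that end just before the most upstream of the gene's listed transcription starts in RefSeq, build GRCh38.p14, written 5′ to 3′ along the gene. The windows are chr2:191847089-191847338 on the minus strand for CAVIN2, chr7:116524759-116525008 on the plus strand for CAV1, and chr7:116499488-116499737 on the plus strand for CAV2. Capitals mark matches on either strand to 4 motifs, namely the Smad-binding element CAGAC, the TEAD site GGAATG, the AP-1 site TGANTCA and the GC box GGGCGG. RefSeq windows were found for 5 of the 7 genes, and not for CAVIN1 and CAVIN3.
CAVIN2: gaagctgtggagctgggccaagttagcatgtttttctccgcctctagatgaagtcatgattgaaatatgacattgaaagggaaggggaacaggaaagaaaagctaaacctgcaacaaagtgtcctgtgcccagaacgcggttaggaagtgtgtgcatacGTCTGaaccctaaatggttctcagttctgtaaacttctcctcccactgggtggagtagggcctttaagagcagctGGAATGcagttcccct
CAV1: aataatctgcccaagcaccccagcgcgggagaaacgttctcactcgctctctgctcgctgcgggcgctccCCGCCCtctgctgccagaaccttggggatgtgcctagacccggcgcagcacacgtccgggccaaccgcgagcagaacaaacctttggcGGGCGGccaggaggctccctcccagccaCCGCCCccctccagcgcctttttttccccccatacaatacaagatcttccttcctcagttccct
CAV2: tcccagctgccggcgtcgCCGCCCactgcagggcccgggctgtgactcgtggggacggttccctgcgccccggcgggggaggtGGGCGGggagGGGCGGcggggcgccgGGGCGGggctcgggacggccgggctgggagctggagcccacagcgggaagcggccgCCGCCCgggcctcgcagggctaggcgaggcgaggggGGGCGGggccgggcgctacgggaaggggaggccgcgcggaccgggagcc

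The window of CAVIN2 held 1 Smad-binding element, which begins 91 bases before the start on the opposite strand, and 1 TEAD site, which begins 16 bases before it. It had no GC box, a GC content of 48% and 4 CpG dinucleotides, against a median of 58% and 11 over 35116 windows. The window of CAV1 held 3 GC boxes and that of CAV2 held 6, and neither had a match to the other 3 motifs. The GC content was 63.6% for CAV1 and 83.2% for CAV2. RefSeq gives further starts, and all 3 windows of CAV1 and both of CAV2 held GC boxes alone, 3 of them with 70.0% GC in the second window of CAV2. These traits of the CAVIN2 window recurred in PACSIN2, which stayed within 2-fold, but only at downstream starts. There, 4 of 6 windows held a Smad-binding element and a TEAD site without a GC box, at 46.4% to 48.8% GC. Several of those 4 windows overlap and share the same matches. The most upstream window of PACSIN2, chosen as for CAVIN2, held 2 GC boxes, 68% GC and 24 CpG dinucleotides. It had no match to the other 3 motifs. The window of EHD2 held 1 Smad-binding element and 1 GC box. Of all windows, 38.0% held the Smad-binding element, 11.9% the TEAD site, 6.57% the AP-1 site and 42.6% the GC box. No 2 motif matches overlapped in the 3 windows printed. A match describes letters and is not evidence of binding.

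Signals are MAS5 intensities on a linear scale as deposited, with nearly the same trimmed mean on both arrays. A fold divides the TGF-β signal by the control signal, and a log2 fold change is its base-2 logarithm. A gene stands by its brightest probe set and counts as changed at 2-fold or more, which is a rule of size. The background of an array is the highest signal among 27 probe sets for Bacillus subtilis transcripts, 45.8 without TGF-β and 56.6 with it. A fold against a signal at or under it is given as at least that size. The spread is the robust standard deviation of log2 fold changes over the 500 probe sets of nearest brightness, so it is a spread between probe sets of the same 2 arrays.

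After 12 h with TGF-β, 1 of the 7 caveolar genes was lower, none was higher and 6 changed by less than 2-fold. The gene that fell was CAVIN2, while CAVIN1, the cavin without which caveolae do not form, came nearest to a 2-fold rise. Over all 12375 genes 2.96% were at least 2-fold lower and 3.94% at least 2-fold higher. Over the caveolar genes the median log2 fold change was -0.07, over all genes it was -0.03, and the median size of the change, without its sign, was 0.19 and 0.23. In RNA from a whole culture, fewer cells that hold a transcript and less of it in each cell cannot be told apart.

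**Figure D1:**
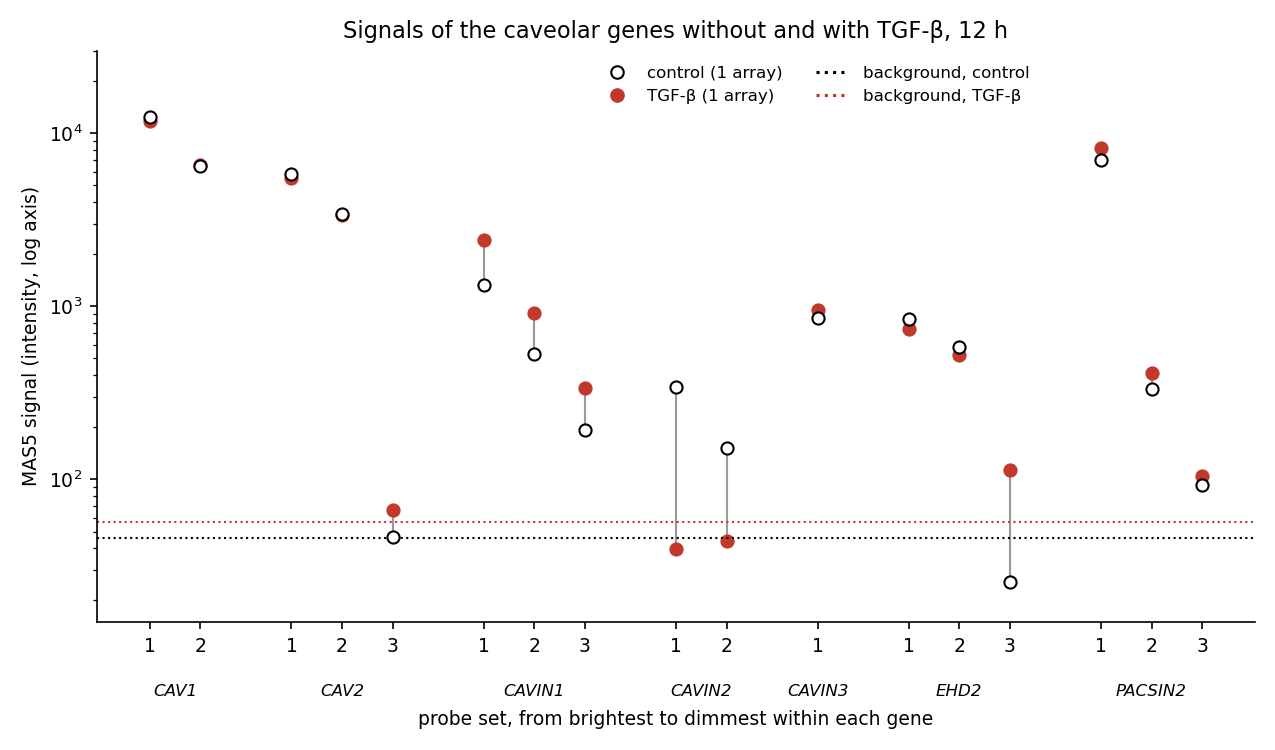
MAS5 signal (log axis) of each of the 17 probe sets of the caveolar genes, ordered from brightest to dimmest within a gene, without TGF-β (open points) and with it (red points). A point is a single array, and the backgrounds are dotted lines at 45.8 (black) and 56.6 (red). Both CAVIN2 probe sets drop below the red line, all 3 CAVIN1 probe sets rise by similar steps, and the CAV1 pairs lie almost on each other.

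CAV1, the main structural protein of caveolae in non-muscle cells, was measured by 2 probe sets. The brighter, 212097_at, read 12350 without TGF-β and 11790 with it, a log2 fold change of -0.07 where the spread was 0.16. The other, 203065_s_at, read 6475 and 6556, a log2 fold change of 0.02. These are differences of less than the spread, in opposite directions. CAV2, which needs caveolin 1 to reach the membrane, had 3 probe sets. The brightest, 203324_s_at, went from 5803 to 5540, a log2 fold change of -0.07 with a spread of 0.19, and 203323_at went from 3436 to 3355, a log2 fold change of -0.03. The third, 213426_s_at, was just above background on both arrays, at 46.2 and 66.6, and its log2 fold change of 0.53 was within the spread of 0.70 at that brightness. For both caveolins, the bright probe sets thus read nearly the same on the 2 arrays.

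CAVIN2, a cavin that drives membrane curvature, was lower in both of its probe sets. For 222717_at the control signal was 344 and the TGF-β signal 39.5, which is below background, so the fall was at least 6.08-fold. The ratio of the signals as deposited was 8.71, a log2 fold change of -3.12 with a spread of 0.52. The second, 218711_s_at, went from 151 to 44.2, also below background, a fall of at least 2.67-fold with a deposited log2 fold change of -1.77 and a spread of 0.56. Both probe sets were above background in the control and at it with TGF-β, so the size of the fall has a lower bound and no upper one. By the deposited ratios its fall ranked 13 among the 12375 genes, an order that signals at background leave uncertain. Of the 366 genes that were at least 2-fold lower, 210 had a TGF-β signal at background, and 204 genes were still 2-fold lower after such signals were raised. Among 6072 genes with 2 or more probe sets kept by the filter on dim signals, 33 (0.543%), CAVIN2 included, had all of them at least 2-fold lower. That filter takes the mean of both arrays, and both CAVIN2 probe sets passed it only through their control signals. A probe set dim on 1 array passes only when it is high on the other, which favours large ratios. The share describes these arrays and is not support for the fall. The study listed CAVIN2, as SDPR, from these same arrays, so its direction here is not independent evidence.

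CAVIN1, also known as PTRF, is required for the assembly of the coat. Its 3 probe sets all read higher with TGF-β. The signal of 208789_at went from 1326 to 2412, which is 1.82-fold higher, and the log2 fold change was 0.86 where the spread was 0.27. That of 1557938_s_at went from 528 to 917, which is 1.74-fold, and that of 208790_s_at from 192 to 336, which is 1.75-fold. All 6 signals were above background, and the log2 fold changes of the 3 probe sets lay within 0.07 of each other. Over the 2488 genes with at least 3 probe sets above background on both arrays, the median of that range was 0.42, and 57 genes (2.29%) had a range as small as that of CAVIN1. A range tends to grow with the number of probe sets, and CAVIN1 has 3, the fewest counted here. Genes with exactly 3 were not compared on their own. In 51 of these 2488 genes (2.05%), CAVIN1 among them, every such probe set was at least 1.5-fold higher. The 1.5-fold limit was chosen with the signals in view, and by it CAVIN1 was the 1 caveolar gene that was higher, where 9.16% of all genes were. Among the 11513 genes with both signals above background its rise ranked 474. CAVIN3, a cavin that also binds protein kinase C delta, had 1 probe set, 213010_at, which read 852 and 955. Its log2 fold change of 0.16 was smaller than the spread of 0.31.

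**Figure D2:**
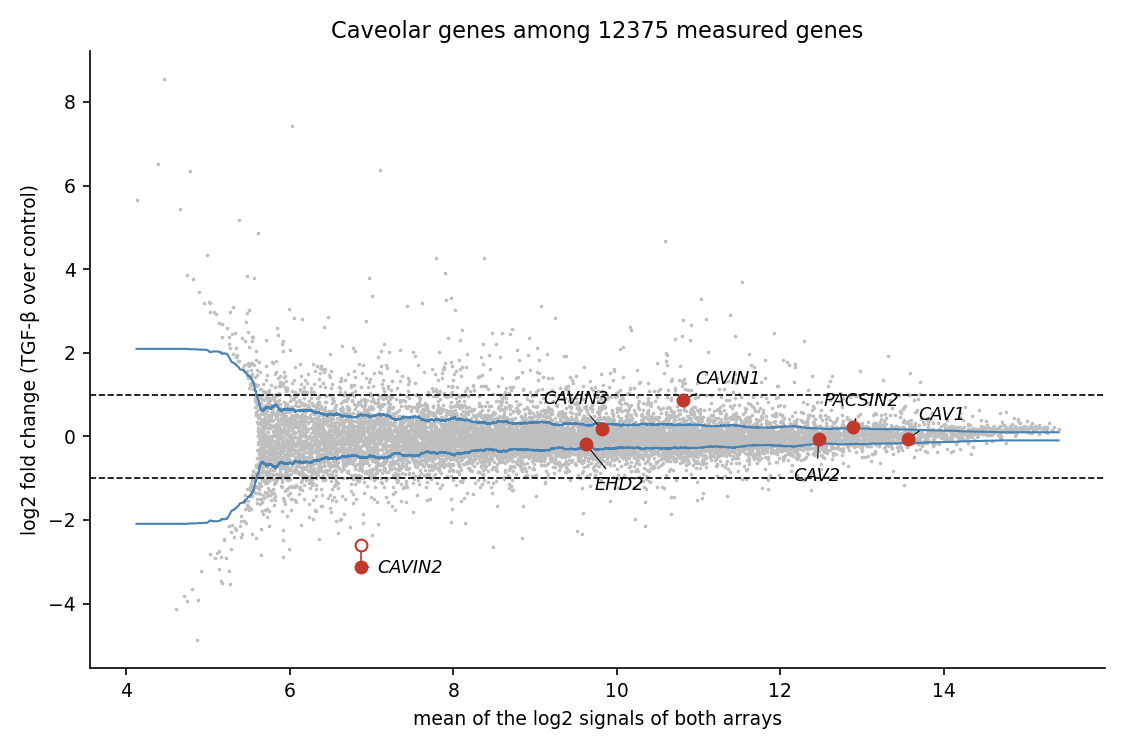
Log2 fold change of 12375 genes (grey points, 1 per gene) against the mean of their log2 signals on the 2 arrays, with the 7 caveolar genes in red. Blue lines mark the spread above and below 0, dashed lines a 2-fold change, and the open point the fall of CAVIN2 computed against background (log2 fold change -2.60). CAVIN1 lies outside the blue lines and inside the dashed ones, and CAVIN2 lies far below both.

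The accessory genes changed little in their bright probe sets. EHD2 had 3 probe sets, and they disagreed. The brightest, 221870_at, went from 844 to 739, a log2 fold change of -0.19 with a spread of 0.27, and 45297_at went from 586 to 523, a log2 fold change of -0.16 with a spread of 0.34. The dimmest, 205341_at, was below background in the control, at 25.5, and read 113 with TGF-β, at least 2.47-fold higher, against the direction of the other two. PACSIN2 read higher in each of its 3 probe sets. Its brightest, 201651_s_at, went from 7030 to 8202, a 1.17-fold rise whose log2 fold change of 0.22 compares with a spread of 0.18. The others read 335 and 412 (1554691_a_at) and 93.4 and 105 (233705_at), with log2 fold changes of 0.30 and 0.17, both within their spread. In all, 14 of the 17 probe sets changed by less than 2-fold. The 3 that passed it, both of CAVIN2 and the dimmest of EHD2, each had 1 signal at background. The share over all probe sets was not computed, so this count describes these 17 only.

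The other members of these families were read beside them. CAV3 and CAVIN4, the muscle forms of caveolin and cavin, and PACSIN1, the neuronal PACSIN, were at background on both arrays. Of the 6 relatives that were measured, 1 was at least 2-fold higher, none was lower and 5 changed by less, where 3.94% of all genes were higher and 2.96% lower. The one that passed was PACSIN3, whose only kept probe set went from 423 to 939, a 2.22-fold rise. EHD1, EHD3 and EHD4, ATPases of endocytic recycling named here after their values were seen, had log2 fold changes of 0.71, 0.54 and 0.49 by their brightest probe sets. The 4 probe sets of EHD4 were between 1.28-fold and 1.49-fold higher, while 1 of EHD1 gave 1.01-fold and 1 of EHD3 0.979-fold. EHD2 was therefore the 1 gene of the 4 whose brightest probe set read lower. Flotillins, which scaffold a different kind of membrane domain, read lower in their brightest probe sets, FLOT1 from 2022 to 1380 and FLOT2 from 501 to 403.

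Among 6 measured kinases and partners that act on caveolae, none passed 2-fold, and the median log2 fold change was 0.38. The largest change was that of ROR1, a receptor-like protein that scaffolds cavin 1 and caveolin 1. Its brightest probe set went from 686 to 1325, a 1.93-fold rise, but a dimmer one went from 109 to 94.0. Of 11 measured receptors, channels and enzymes found in caveolae, 2 were higher, none was lower and 9 changed by less, with a median log2 fold change of 0.15. Over all genes, 3.94% were higher and 2.96% lower by the same rule. KCNMA1, a potassium channel, also passed 2-fold under median or loess scaling. TRPC1, a calcium channel, read 965 and 964 by its brightest probe set, but its dimmest went from 111 to background, a fall of at least 1.96-fold. TGFBR1, the type I TGF-β receptor, went from 1586 to 6178, a 3.90-fold rise, and another of its probe sets from 53.5 to 106.7, a log2 fold change of 0.997. BMPR2, the type II receptor of bone morphogenetic proteins, went from 859 to 2067, and its 5 probe sets were between 1.91-fold and 2.41-fold higher. TGFBR2, the type II TGF-β receptor, read lower by its brightest probe set, from 3321 to 1990, a log2 fold change of -0.74. NOS3, the endothelial nitric oxide synthase, was below the filter on dim signals, as were CD36, PTGIS, AQP1 and PDGFRB. All 13 measured genes of clathrin-mediated endocytosis, the other main route into the cell, stayed within 2-fold by their brightest probe sets, with a median log2 fold change of 0.24. A dimmer probe set of AP2A1, a subunit of the clathrin adaptor AP2, went from background to 100.3, at least 2.19-fold higher, while the brightest read 135 and 132. FCHO2, which starts clathrin pits, had the largest change of them, from 1715 to 2494, which is 1.45-fold.

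**Figure D3:**
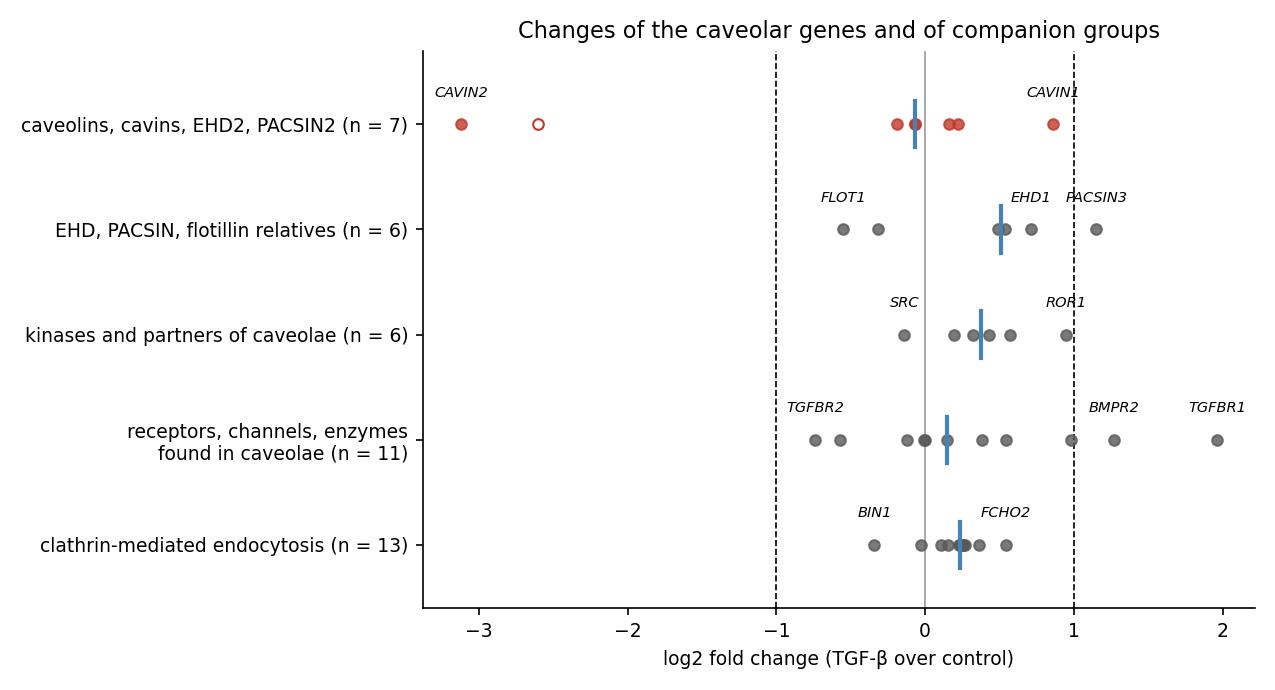
Log2 fold change of each measured gene (points) in the caveolar genes (red) and in 4 companion groups (grey), with the number of genes in brackets. Blue bars are medians, dashed lines mark a 2-fold change, and the open point is the fall of CAVIN2 computed against background. The caveolar genes span from CAVIN2 at -3.12 to CAVIN1 at 0.86, and no gene of the companion groups lies below -1.

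By signal on both arrays, the genes nearest to CAVIN2 were SLCO4A1, MTARC1 and SH2D5, at distances of 0.58, 0.69 and 0.70 on the log2 scale. The TGF-β signal of CAVIN2, 39.5, was below background, so these distances are uncertain. SLCO4A1 was 5.11-fold lower, to just above background, while MTARC1 and SH2D5 fell to background, like CAVIN2, by at least 3.80-fold and 3.99-fold. Those nearest to CAV1, the caveolar gene with the highest signal, were NDUFB10, PDLIM5 and PRMT1, at distances of 0.01, 0.02 and 0.02 on the log2 scale. This likeness rests on 2 values per gene, and the signals of different probe sets do not compare amounts of RNA.

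The response to TGF-β and the identity of the cells were checked with marker genes. CCN2, PMEPA1 and SMAD7, which are targets of TGF-β signalling, were 9.69-fold, 3.79-fold and 2.06-fold higher, and TGFBI was 1.29-fold higher. The epithelial markers KRT8, KRT18, EPCAM and CDH1 were above background on both arrays, and CDH1 (E-cadherin) fell from 1952 to 846. Of 6 endothelial markers, 2 were above background in the control and 1 with TGF-β, with summed signals of 147 and 106. PECAM1, at 56.4 and 65.4, was above background on both arrays, and ESAM, at 53.4 and 10.8, in the control only. VWF, CDH5, TEK and TIE1 were at background on both arrays. Of 5 fibroblast markers, 2 and 0 were above background (summed signals 181 and 112), of 4 adipocyte markers 2 and 0 (186 and 145), of 4 muscle markers 2 and 0 (116 and 86.9), of 3 immune markers 1 and 1 (108 and 123), and of 4 alveolar type I markers 1 and 2 (326 and 272). Background was lower in the control (45.8) than with TGF-β (56.6), so these counts do not show a loss of markers. The fibroblast marker DCN, at 47.5 and 46.7, counted in the control only. The alveolar type I marker HOPX, at 282 and 171, and the immune marker CD3E, at 48.8 and 74.8, were above background on both arrays. AGER, another alveolar type I marker, read 22.0 and 62.9 and counted with TGF-β only. Over all probe sets, 52.1% were above background in the control and 47.5% with TGF-β. THY1, a fibroblast marker, went from 82.5 to below background, a fall of at least 1.46-fold. The part of other cells in the fall of CAVIN2 was not tested.

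**Figure D4:**
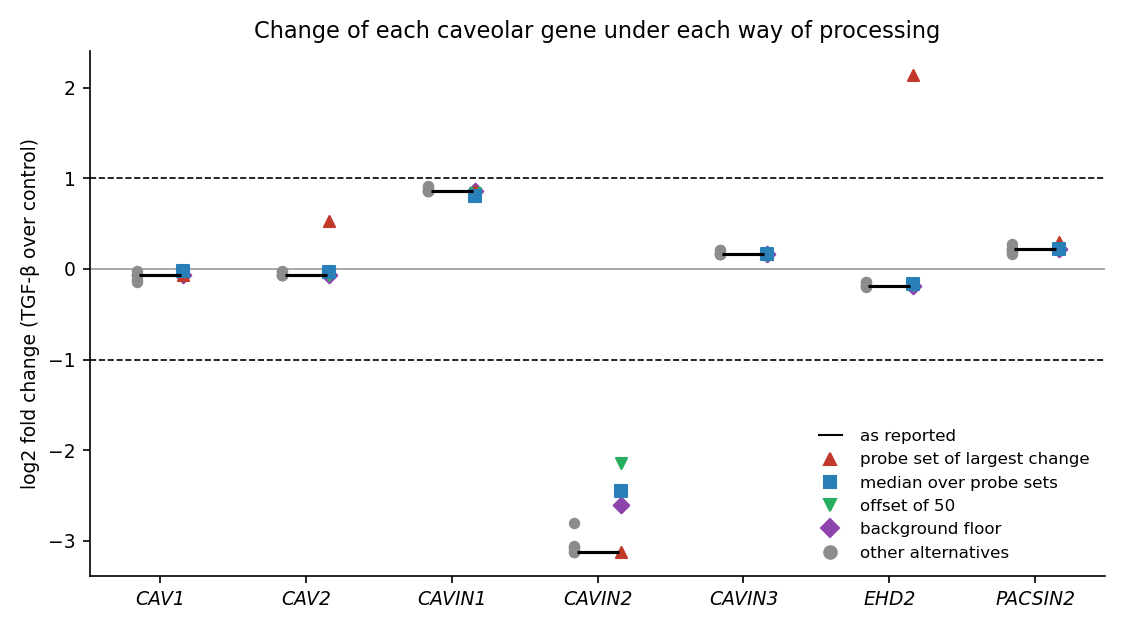
Log2 fold change of each caveolar gene as reported (black bars) and under each of the 11 alternative ways of processing the signals (points, 4 of the alternatives in colour). Dashed lines mark a 2-fold change. CAVIN2 stays below -2 in all 10 alternatives that gave it a value, CAVIN1 stays between 0.80 and 0.91, and EHD2 leaves the region around 0 only when the probe set of largest change stands for the gene.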

How the data were processed

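RNA from 1 control culture and 1 TGF-β culture of A549 cells was measured on 1 array each. The authors deposited a linear intensity for each probe set, made with MAS5 per the labels. For MAS5, neither version nor settings are given in the sources used here. Trimmed by 2% at both ends, the mean signal was 500 on either array, and the median was 51.0 for the control and 49.3 for TGF-β.

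Symbols of the platform annotation were updated through gene identifiers of RefSeq (GRCh38.p14). Leaving out array controls, 54613 probe sets remained, 41091 with 1 symbol, 1801 with several and 11721 with none, and only the first kind was used for genes. Probe sets were kept from a mean signal of 48.7 upward, which is the median, and a gene stood by the brightest. Ratios and log2 values were computed with Python 3.11.15, numpy 2.4.6, pandas 2.3.3 and statsmodels 0.14.6, without a test, and plots were drawn with matplotlib 3.10.9. The spread is 1.4826 times the median absolute deviation. The 2-fold rule and the spread were run on simulated data, where the planted changes were well beyond 2-fold. Changes near 2-fold were not simulated, so that run says nothing of them.

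Genes named were the 7 members, in each companion group the 3 largest rises and the 3 largest falls past 2-fold or else the largest change, the response and epithelial markers, and the 3 genes nearest in signal to CAVIN2 and CAV1. Other genes were named after their values were seen. The members and lists were chosen with earlier results of these data known. Some genes of the lists are not reported here. The upstream windows were read in the orientation of the gene. The alternatives are no filter, a filter at the 75 percentile (349), floors at the array median and at background, an offset of 50, quantile, loess (span 0.3) or median scaling of the arrays, the probe set of largest change or the median of all probe sets to stand for a gene, and no probe sets named as sharing targets.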

Additional observations from a re-analysis of the deposited data

How the results depend on the processing

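The alternatives say nothing of variation between cultures, since each condition had 1 array. The log2 fold change of CAVIN2 was -2.14 with an offset of 50 and -2.45 by the median over probe sets (an offset shrinks ratios of dim signals by construction), and it had no value under the filter at the 75 percentile, where 0 caveolar genes were at least 2-fold lower. Under that filter 0.806% of all genes were at least 2-fold lower. By the probe set of largest change 1 caveolar gene (EHD2, log2 fold change 2.15) was at least 2-fold higher. By that choice 5.45% of all genes were higher and 4.82% lower. CAV2 was then at 0.53, and the median was 0.30 over the caveolar genes and -0.09 over all genes. With a threshold of 1.5-fold, added after the data had been seen, 1 gene (CAVIN1) was higher, as were 9.16% of all genes. CAV1, CAVIN1, CAVIN3 and PACSIN2 kept their sign and moved by less than the spread in all 11 alternatives. The count of 1 lower gene held in 10 of the 11, in which between 1.08% and 12.1% of all genes were lower. Among the companion genes, TGFBR1 missed 2-fold without shared-target probe sets (log2 fold change 0.997) and SMAD7 with the offset (0.998), KCNMA1 (0.98) passed 2-fold with equal medians (1.03) or loess, TRPC1 (0.00) was at -1.05 and AP2A1 (-0.03) at 2.25 by the probe set of largest change, AP2A1 also passed 2-fold by the median over probe sets, while PACSIN3 passed it in all 10 alternatives that measured it. Signal over background limits the size of the fall of CAVIN2. No paired analysis was possible because each condition had 1 array.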
